A study of Mus musculus with 16 samples.

Results

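Transcripts of the actin and alpha-actinin genes were examined in 16 mouse left ventricle libraries, as 9 genes of the 57186 gene IDs counted. The 9 were taken by name: the striated-muscle actins Acta1 (skeletal alpha-actin) and Actc1 (cardiac alpha-actin), the smooth-muscle actins Acta2 and Actg2, the cytoplasmic actins Actb and Actg1, and the alpha-actinins Actn1, Actn2 and Actn4. Each matched a single Ensembl ID, and each was among the 15206 genes with enough counts to be tested. Mice of the strain C57/BL6N came in 4 groups of 4 biological replicates: cardiomyocyte-specific TFEB knockout mice after transverse aortic constriction (cKO TAC), such knockouts after sham surgery (cKO sham), control mice after constriction (WT TAC) and control mice after sham surgery (WT sham). Constriction is a surgical model in which the ventricle pumps against a raised pressure, and TFEB is a regulator of lysosome and autophagy genes. The labels give no age, sex, time after surgery, Cre driver or floxed allele, so it is not known whether the WT mice carry either of the alleles that make the knockout.

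Actin is the subunit of the thin filament of muscle and of the actin cytoskeleton of every cell. The adult mouse heart builds its thin filaments mainly from cardiac alpha-actin, and Acta1 is a classic member of the fetal gene programme that returns under load. Alpha-actinins are dimers that cross-link actin filaments: Actn2 is the sarcomeric form that anchors thin filaments at the Z-disc, and Actn1 and Actn4 are the non-muscle forms found at adhesions and stress fibres. Many actin genes are driven by serum response factor, which binds a short element named the CArG box.

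Libraries held 12946878 to 16347388 counts, and the 9 genes took 1.23% to 2.62% of them. Tfeb itself averaged 12.7 ± 2.34 CPM (counts scaled to library size with TMM factors) in cKO TAC against 29.1 ± 9.77 in WT TAC, and 10.5 ± 1.74 in cKO sham against 36.5 ± 3.94 in WT sham (SD, n = 4 each). The 7 cardiomyocyte markers, among them Myh6 and Myl2, summed to 30790 to 62325 CPM in every library. Transcripts typical of atrium (Sln, Myl7, Myl4, Bmp10, Dkk3) summed to 936.6 CPM in WT TAC replicate 4 and 2557 CPM in WT sham replicate 3, against at most 60.2 CPM in cKO libraries. WT sham replicates 2 and 4 had 289.7 and 148 CPM, also above every cKO library, and the other 4 WT libraries had 8.64 to 29.3 CPM. Results are also given without the 2 highest, called atrial-rich below, where the call changes or the fold moves by over 1.5 times. Scaled by library totals in place of TMM factors, the median log2 fold change of all genes was 0.20 for TAC in cKO, 0.11 for TAC in WT and 0.10 for cKO against WT in TAC, whereas with TMM factors it was 0.00, -0.01 and 0.00. In TAC against sham it turned 2154 higher and 1880 lower calls in cKO into 4013 and 877, and 1475 higher and 934 lower calls in WT into 2170 and 432. For cKO against WT in TAC, 91 higher and 180 lower calls became 116 and 118. Values below are relative to the TMM scale.

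RefSeq promoters (GRCm38.p6, 250 bases before to 50 after the annotated start) were matched for 7 of the 9 genes, with no entry used for Actb and Actg2. The CArG box was searched on both strands, together with a CArG-like form that allows 1 base of its A-or-T core to be G or C and does not count perfect boxes again. A perfect box stood in 3 of the 7 promoters (Acta1, Actc1 and Actg1), against 1.63% of all 32851 mouse promoters. A perfect or CArG-like match stood in all 4 actin promoters at hand and in none of the 3 alpha-actinin promoters, against 9.98% of all promoters. Acta1 held 1 box and 2 CArG-like matches, Actc1 1 box and 3 CArG-like matches, Acta2 2 CArG-like matches and Actg1 1 box; at least 2 matches occur in 0.822% of all promoters. The 4 actin promoters are shown because they carry these matches, which are in capitals, each 5′ to 3′ on the gene's own (minus) strand: Acta1 at chr8:123894726-123895025, Actc1 at chr2:114052826-114053125, Acta2 at chr19:34255324-34255623 and Actg1 at chr11:120348446-120348745.
Acta1: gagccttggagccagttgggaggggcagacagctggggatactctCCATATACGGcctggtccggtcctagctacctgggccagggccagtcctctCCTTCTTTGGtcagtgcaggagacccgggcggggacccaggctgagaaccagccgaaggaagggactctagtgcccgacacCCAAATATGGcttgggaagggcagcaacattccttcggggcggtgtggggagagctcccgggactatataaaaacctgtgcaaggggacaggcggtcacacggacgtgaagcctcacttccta
Actc1: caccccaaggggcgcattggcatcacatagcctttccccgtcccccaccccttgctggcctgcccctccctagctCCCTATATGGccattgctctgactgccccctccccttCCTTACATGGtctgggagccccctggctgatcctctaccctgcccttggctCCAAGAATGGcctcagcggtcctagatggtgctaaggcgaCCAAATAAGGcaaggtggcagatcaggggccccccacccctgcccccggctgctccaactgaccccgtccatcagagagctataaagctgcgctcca
Acta2: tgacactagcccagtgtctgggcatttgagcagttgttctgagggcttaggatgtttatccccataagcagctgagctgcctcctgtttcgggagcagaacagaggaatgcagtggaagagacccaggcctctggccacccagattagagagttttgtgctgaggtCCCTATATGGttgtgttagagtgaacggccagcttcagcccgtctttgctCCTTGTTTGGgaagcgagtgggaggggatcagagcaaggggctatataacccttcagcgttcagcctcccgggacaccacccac
Actg1: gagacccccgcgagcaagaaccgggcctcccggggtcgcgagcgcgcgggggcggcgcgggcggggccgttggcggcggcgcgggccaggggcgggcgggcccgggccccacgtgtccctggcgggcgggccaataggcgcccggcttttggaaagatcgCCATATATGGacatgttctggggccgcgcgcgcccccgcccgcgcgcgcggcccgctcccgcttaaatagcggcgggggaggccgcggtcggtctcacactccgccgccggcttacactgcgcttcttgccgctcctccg

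The perfect box lies 73 to 64 bases before the annotated start in Acta1, 47 to 38 before it in Actc1 and 90 to 81 before it in Actg1. Acta2 has CCCTATATGG at 84 to 75 bases and CCTTGTTTGG at 34 to 25 bases before its start. The letters TATAAA, held by 13.6% of all promoters, occur in Acta1 7 to 2 bases before the annotated start and in Actc1 at bases 34 to 39 after it. The core of the MCAT element, CATTCC, held by 14.7% of promoters, occurs in Acta1, Acta2 and Actn4. TATA letters usually lie a short way before a start rather than at or after it, so in Acta1 and Actc1 the annotated start may not be the one used in the heart, and positions there are relative to the annotation alone. These matches are descriptions of letters and not of binding.

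**Figure D1:**
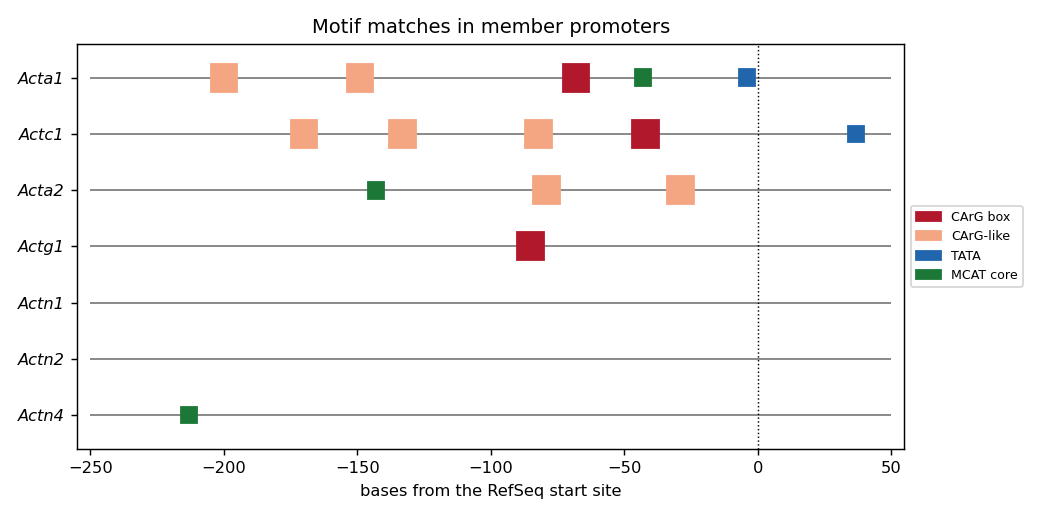
Motif matches in the 7 member promoters, with bases from the RefSeq start site on the horizontal axis and 1 line per gene; wide red blocks are CArG boxes, wide orange blocks CArG-like matches, narrow blue blocks TATA letters and narrow green blocks the MCAT core. The 4 actin promoters hold 1 to 4 CArG matches each, and the lines of Actn1, Actn2 and Actn4 hold none.

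Per kilobase of exon, the 9 genes spanned a wide range of levels. Over the 16 libraries Actc1 averaged 7628 CPM per kb, Acta1 1933, Actn2 597, Actb 169, Actg1 79.6, Acta2 70.1, Actn4 30.2, Actn1 10.8 and Actg2 1.36. Actg1 and Acta2 are neighbours whose order changed between groups, with 84.6 ± 10.6 and 58.4 ± 12.3 CPM per kb in cKO TAC, 54.5 ± 8.28 and 84.7 ± 17.3 in cKO sham, 97.8 ± 1.18 and 76.0 ± 30.5 in WT TAC, and 81.7 ± 22.5 and 61.3 ± 36.4 in WT sham. The order of Acta1 and Actn2 also depended on the group. Acta1 lay above Actn2 per kb in 4 of 4 cKO TAC, 4 of 4 cKO sham and 4 of 4 WT TAC libraries, but in 1 of 4 WT sham libraries, replicate 3.

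**Figure D2:**
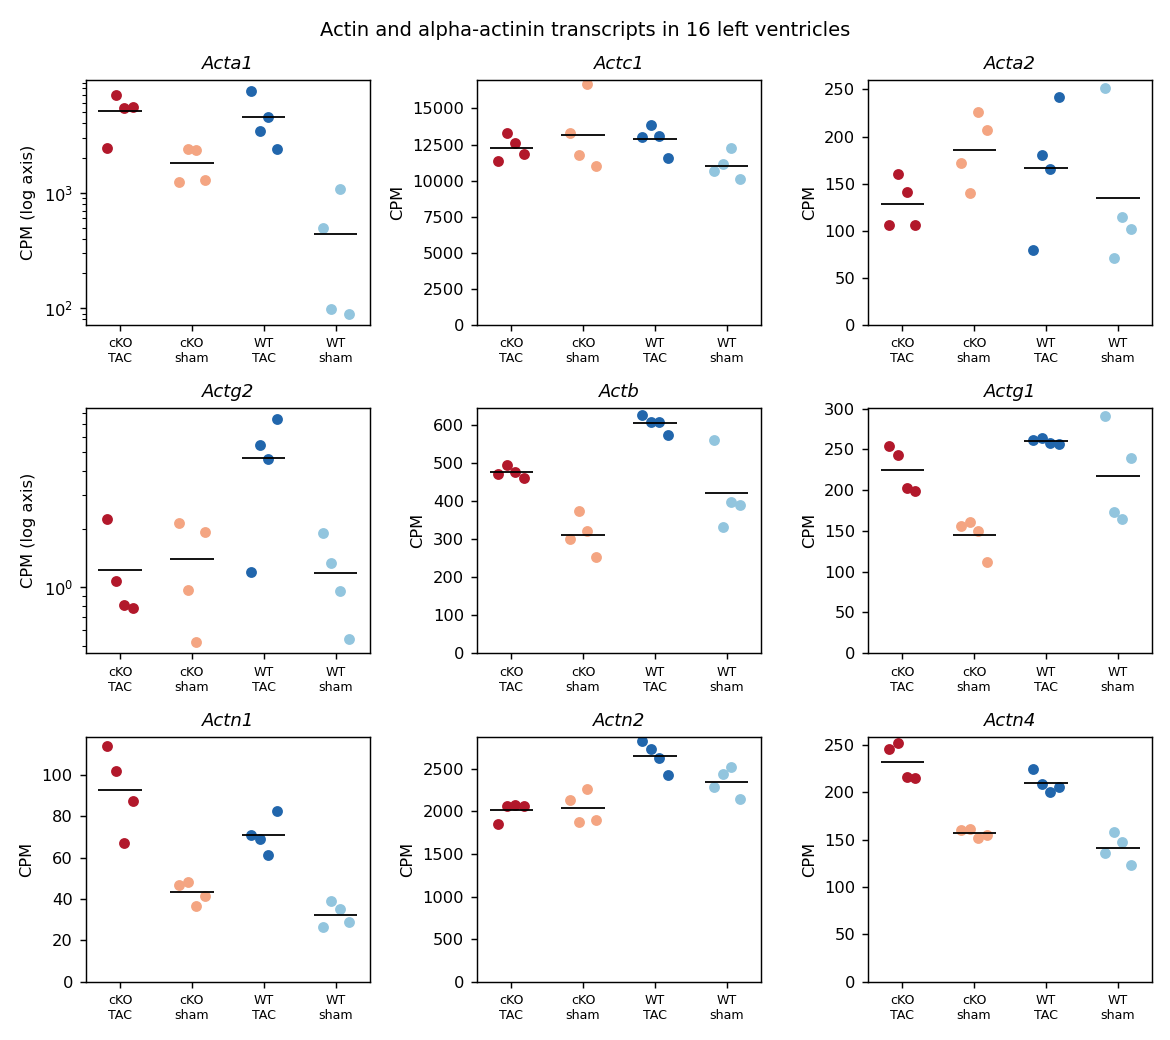
CPM of the 9 genes in every library, a panel per gene, with groups from left to right cKO TAC, cKO sham, WT TAC and WT sham; points are libraries, bars are group means, and the axes of Acta1 and Actg2 are logarithmic. WT sham has the lowest Acta1 points, 89.8 to 1084 CPM, while Actc1 stays between 10085 and 16663 CPM in all groups.

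In the knockout, TAC ventricles had higher transcript levels of the cytoplasmic actins and the non-muscle alpha-actinins than sham ventricles. In TAC against sham in cKO, 4 of the 9 genes rose by edgeR's quasi-likelihood test at an adjusted p under 0.05 (Actb, Actg1, Actn1 and Actn4) and none fell, beside 14.2% of all tested genes that rose, 12.4% that fell and 26.5% called in either direction. In TAC against sham in WT, 5 of the 9 rose (Acta1, Actg2, Actb, Actn1 and Actn4) and none fell, beside 9.7% of all genes that rose, 6.14% that fell and 15.8% called. The median log2 fold change of the 9 was 0.57 in cKO and 0.52 in WT, with a median over all genes of 0.00 and -0.01. The TAC comparisons share no library, whereas each group enters one TAC and one genotype comparison.

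Between genotypes the calls were few. In cKO against WT after TAC, Actn2 alone of the 9 fell, beside 1.78% of all genes called, 0.598% that rose and 1.18% that fell. In cKO against WT after sham none of the 9 passed edgeR's test, beside 1.17% of all genes called, 0.618% higher and 0.552% lower. Of the 9, 5 had an unadjusted p under 0.05, beside 15% of all genes. limma voom also called none in that comparison and DESeq2's Wald test called 3 (Acta1, Actb and Actg1). For the interaction (log2 TAC effect in cKO less the WT one), no member and 0 of all tested genes passed in edgeR; 1 member, Actg2, had an unadjusted p under 0.05, beside 4.7% of all genes, and neither DESeq2 nor voom called a member. All libraries of the TAC group lay above all sham libraries for 5 genes in cKO (15.5% of all genes) and 4 in WT (11%). All cKO libraries lay below all WT libraries for 3 genes after TAC (5.11%) and for 1 gene after sham (3.59%), and above them for 1 gene after sham (4%).

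**Figure D3:**
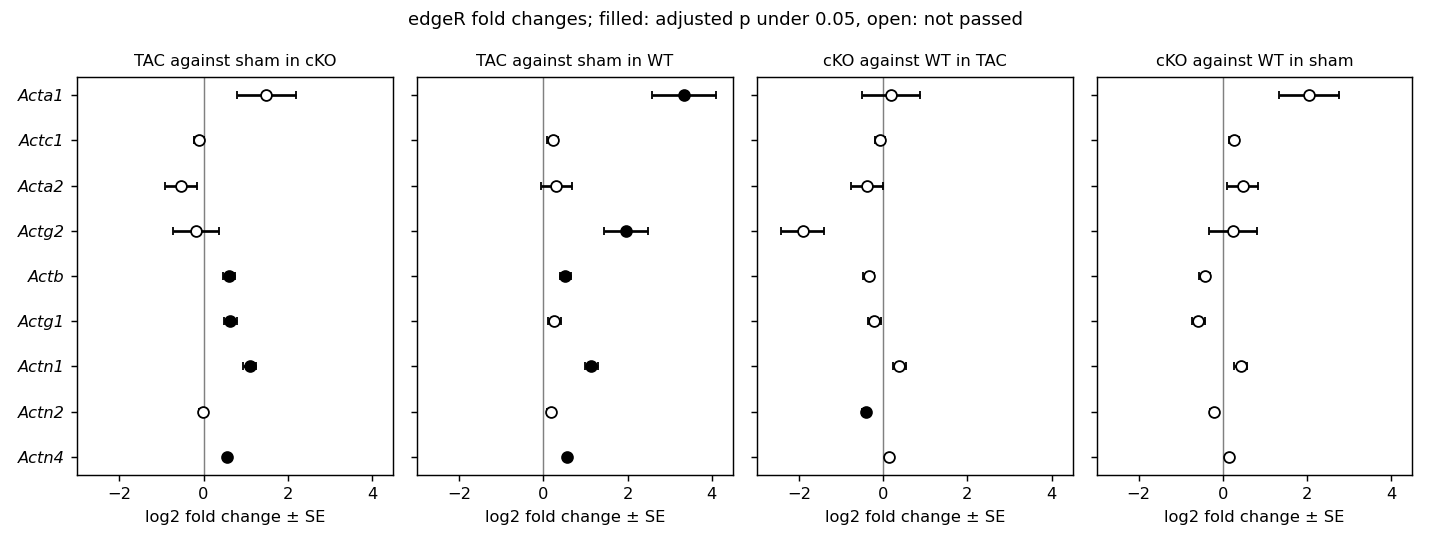
log2 fold change of each gene with its SE in the 4 comparisons of 2 groups (horizontal axis, the first-named group over the second); filled points passed an adjusted p under 0.05 over 15206 genes. Actb, Actn1 and Actn4 are filled in both TAC comparisons, Acta1 is filled only for TAC in WT, and Actn2 is the filled point for cKO against WT in TAC.

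Acta1, the skeletal alpha-actin of the fetal programme, varied most. It stood at 2454, 7080.5, 5414 and 5526 CPM in cKO TAC (replicates 1 to 4), at 1245, 2372, 2352 and 1302 in cKO sham, at 7627, 3458, 4504 and 2392 in WT TAC, and at 498, 97.6, 1084 and 89.8 in WT sham. TAC libraries lay above sham libraries without overlap in each genotype, and every cKO sham library lay above every WT sham library. WT sham itself was spread over 12.1-fold, with replicates 2 and 4 far below replicates 1 and 3.

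In WT, Acta1 rose 10.2-fold with TAC (log2 3.35, SE 0.75, adjusted p = 0.0107 by edgeR). In cKO the ratio of TAC to sham was 2.82-fold (log2 1.49, SE 0.70, 95% interval -0.04 to 3.03, adjusted p = 0.138). A fit of the 8 libraries of each comparison alone turned both calls, with an adjusted p of 0.0672 in WT and 0.0121 in cKO. The interaction of -1.85 (SE 0.98, 95% interval -3.99 to 0.29) did not pass (adjusted p = 0.946), so the 2 responses are not shown to differ. Its value was -2.80 to -1.47 with single libraries left out, lowest without WT sham replicate 3, and -3.01 without both atrial-rich WT libraries (adjusted p = 0.768). The log2 change in WT was 4.30 without WT sham replicate 3 and 4.51 without both WT libraries richest in atrial transcripts (adjusted p = 0.00272 and 0.00300).

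Between the sham groups, Acta1 in cKO sham was 4.11-fold that in WT sham (log2 2.04, SE 0.72, 95% interval 0.48 to 3.60). The adjusted p was 0.191 by edgeR and 0.0498 by DESeq2, so the call depends on the tool, and leaving out single libraries gave log2 values of 1.70 to 2.99 and adjusted p from 0.0565 to 0.355. The highest value was that without WT sham replicate 3, and without both atrial-rich WT libraries it was also 2.99 (adjusted p = 0.0566). After TAC the genotypes overlapped: cKO averaged 5118 ± 1932 CPM and WT averaged 4495 ± 2259 CPM (SD, n = 4 each; log2 0.19, SE 0.69, adjusted p = 0.932). Acta1 is the main actin of skeletal muscle, so 8 skeletal fibre markers were read beside it. Their sum was 7.77 to 22.8 CPM in cKO TAC, 5.50 to 14.4 in cKO sham, 3.43 to 5.60 in WT TAC and 2.86 to 7.76 in WT sham. The fast myosin Myh4 reached at most 0.181 CPM in cKO TAC and was at 0 in every WT library. Of the 8 markers 4 could be tested, and with TAC in cKO 1 rose, the troponin Tnnt3 (8.24 ± 7.74 CPM in TAC, 1.31 ± 0.384 in sham, adjusted p = 0.00219). The other 3 did not pass, with log2 values of -1.19 for Atp2a1, -0.66 for Tnni2 and -0.31 for Mylpf. None of the 4 passed with TAC in WT. In cKO against WT, 1 of the 4 rose after TAC (median log2 1.56) and none passed after sham (median log2 1.07). The cKO TAC library with the highest skeletal sum, replicate 1, had the lowest Acta1 of its group. Tnnt3, at up to 19.4 CPM in cKO TAC, made up most of that highest sum. Whether skeletal fibres bear on the Acta1 values was not tested.

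Actc1, the cardiac alpha-actin that forms most thin filaments of the adult heart, gave no call. It stood at 11339, 13322, 12596 and 11846 CPM in cKO TAC, at 13294, 11753, 16663 and 11027 in cKO sham, at 13023, 13886, 13057 and 11535 in WT TAC, and at 10633, 11166, 12244 and 10085 in WT sham. The groups overlapped in every comparison. The log2 fold change of TAC over sham was -0.10 in cKO (95% interval -0.37 to 0.17, adjusted p = 0.582) and 0.22 in WT (-0.05 to 0.49, adjusted p = 0.232). By library totals the cKO value turned to 0.09 and the WT value passed at 0.34 (adjusted p = 0.0375). For cKO over WT it was -0.07 after TAC (-0.34 to 0.20, or 0.02 by library totals) and 0.26 after sham (-0.01 to 0.53), neither past the threshold (adjusted p = 0.835 and 0.339).

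The ratio of Acta1 to Actc1 reads per kb gives the isoform mix of each ventricle free of library scaling. It was 0.228, 0.560, 0.453 and 0.491 in cKO TAC, 0.0987, 0.213, 0.149 and 0.124 in cKO sham, 0.617, 0.262, 0.363 and 0.218 in WT TAC, and 0.0494, 0.00921, 0.0932 and 0.00938 in WT sham. In WT sham replicates 2 and 4 the skeletal isoform was thus under 1% of the cardiac one, and the 8 sham ratios split by genotype without overlap. TAC ratios lay above sham ratios without overlap in both genotypes.

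Mean log2 differences of this ratio were 1.55 (SE 0.37) for TAC over sham in cKO, 3.74 (SE 0.91) for TAC over sham in WT, 2.48 (SE 0.88) for cKO over WT after sham and 0.29 (SE 0.44) for cKO over WT after TAC. Two-sided exact permutation tests gave p = 0.0286 for the first 3, the smallest that 70 relabelings of 4 against 4 allow, and p = 0.543 for the last. Over the 24 ratio tests (6 ratios in 4 comparisons) the adjusted exact p of those 3 was 0.0623, so none passed. A limma fit of all genes relative to Actc1 called the ratio for TAC in WT (adjusted p = 0.00447, beside 17.5% of all genes called). It did not call TAC in cKO (0.157, beside 16.1%), cKO over WT after sham (0.0746, beside 2.55%) or cKO over WT after TAC (0.937, beside 0.401%). Left-out libraries moved the WT value between 3.26 and 4.38, and it was 4.58 without both atrial-rich WT libraries. For cKO over WT after sham the value without them was 3.11. The difference between the 2 TAC responses, -2.20 on the log2 scale (SE 0.97), did not pass that fit (adjusted p = 0.450).

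**Figure D4:**
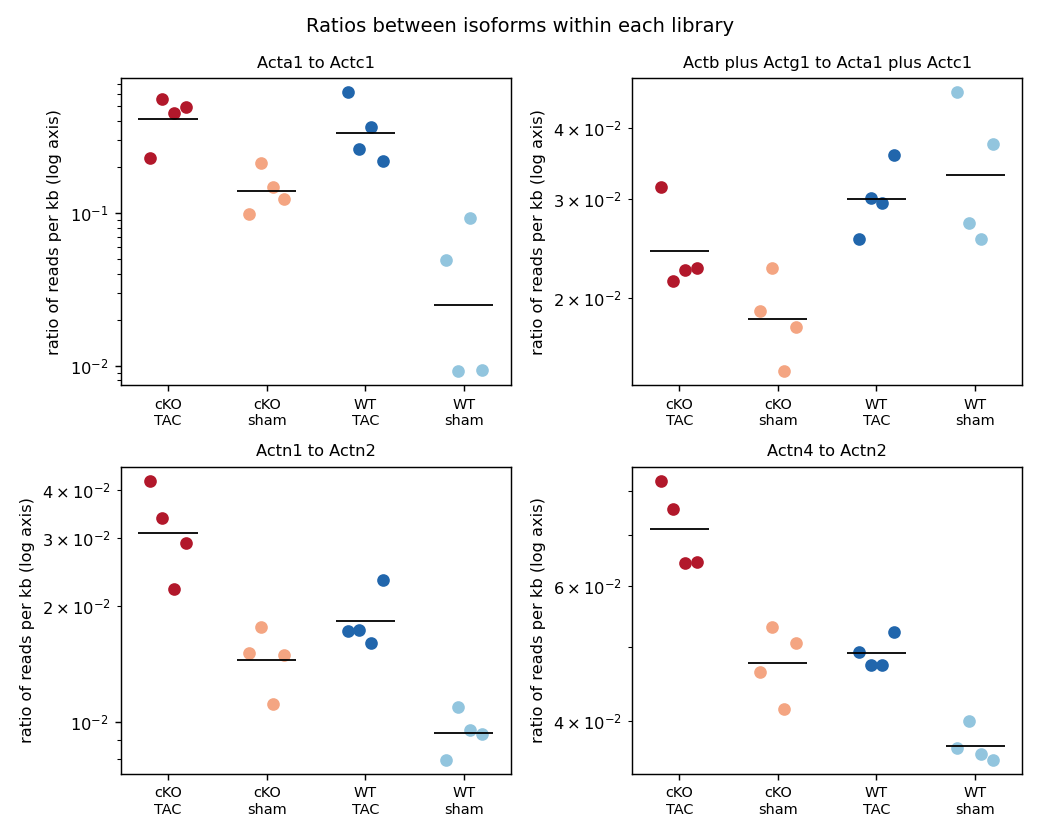
Ratios of reads per kb within each library on logarithmic axes, for Acta1 to Actc1, for cytoplasmic to striated-muscle actins, for Actn1 to Actn2 and for Actn4 to Actn2; points are libraries, bars are geometric means, and groups run cKO TAC, cKO sham, WT TAC, WT sham. Acta1 to Actc1 runs from 0.00921 in a WT sham library to 0.617 in a WT TAC library, and Actn4 to Actn2 is highest in cKO TAC at 0.0643 to 0.0823.

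Acta2, the alpha-actin of vascular smooth muscle and of myofibroblasts, gave no call. It stood at 106, 160.0, 141 and 106 CPM in cKO TAC, at 172, 139.8, 226 and 207 in cKO sham, at 79.5, 180.3, 166 and 242 in WT TAC, and at 251, 71.4, 114 and 101 in WT sham. All groups overlapped. The log2 fold change of TAC over sham was -0.54 in cKO (SE 0.37, adjusted p = 0.320) and 0.31 in WT (SE 0.37, adjusted p = 0.611, or 0.07 to 0.80 with single libraries left out), and cKO over WT was -0.38 after TAC and 0.47 after sham (adjusted p = 0.667 and 0.606). A fit of the 8 cKO libraries alone called the fall in cKO (-0.54, adjusted p = 0.0395).

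Fibroblast genes stand beside it as the other source of Acta2. Of the 7 fibroblast and myofibroblast markers, 5 rose with TAC in cKO and 4 in WT, none fell, and their sum was 2095 to 4011 CPM in cKO TAC against 744 to 1178 in cKO sham, and 1375 to 2208 in WT TAC against 596 to 994 in WT sham. In cKO against WT after TAC, 1 of the 7 rose. Periostin (Postn) rose by 3.99 in cKO and 3.09 in WT on the log2 scale (adjusted p = 0.000170 and 0.00123).

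Actg2, the gamma-actin of visceral smooth muscle, was near the lower limit of the assay. It stood at 2.27, 1.07, 0.813 and 0.786 CPM in cKO TAC, at 2.15, 0.971, 0.521 and 1.94 in cKO sham, at 1.20, 5.43, 4.60 and 7.41 in WT TAC, and at 1.91, 1.34, 0.961 and 0.541 in WT sham. WT TAC replicates 2 to 4 lay above all other libraries, and WT TAC replicate 1 lay within the range of the other groups. Actg2 rose 3.90-fold with TAC in WT (log2 1.96, SE 0.53, adjusted p = 0.0186), but the call was lost without WT TAC replicate 4 (adjusted p = 0.0515), without WT sham replicate 4 (0.0571), without both libraries richest in atrial transcripts (0.0954), in limma voom (0.0643) and without the filter on low counts (0.0688).

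In cKO the log2 change of Actg2 with TAC was -0.18 (SE 0.55, adjusted p = 0.845). The interaction was -2.15 (SE 0.76, unadjusted p = 0.0120, adjusted p = 0.946). After TAC, cKO stood at 1.24 ± 0.702 CPM against 4.66 ± 2.59 in WT (SD, n = 4 each; log2 -1.91, SE 0.51, adjusted p = 0.0644 by edgeR and 0.00907 by DESeq2). That difference passed without WT TAC replicate 1 (-2.24, adjusted p = 0.0130) and was -1.59 without both atrial-rich WT libraries (adjusted p = 0.147). Within WT TAC the 8 smooth muscle markers summed to 349, 505, 500 and 614 CPM in replicates 1 to 4, the same order of libraries as Actg2 and Acta2. No other group kept this order in full. The highest sum of cKO TAC was in replicate 3, with Actg2 at 0.813 CPM. WT sham replicate 4 had the lowest Actg2 of its group beside a sum of 474 CPM. In cKO sham, replicates 1 and 4 had the highest sums (508 and 501 CPM) and also the highest Actg2 (2.15 and 1.94 CPM). The sum of the 8 markers was 352 to 390 CPM in cKO TAC, 349 to 614 in WT TAC, 356 to 508 in cKO sham and 429 to 604 in WT sham. Of the 8, 2 rose with TAC in WT, Cald1 and calponin (Cnn1, a regulator of smooth muscle contraction, 15.0 ± 5.27 CPM in TAC, 3.62 ± 1.51 in sham, adjusted p = 0.0105), 1 fell, Smtn, and 5 did not pass. By mean CPM, Smtn was the largest of the 8 markers in every group. It averaged 162 CPM after TAC and 232 after sham in knockouts, against 217 and 294 in controls. Tagln averaged at most 1.25 CPM. The sum thus weighs Smtn most, which fell with TAC in both genotypes, whereas Cald1 rose in both. The part of vessel content in the Actg2 values was not tested, and in bulk tissue fewer cells of a type and less RNA per cell cannot be told apart.

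Actb, the cytoplasmic beta-actin, rose with TAC in both genotypes. It stood at 469.9, 494, 476 and 459.5 CPM in cKO TAC, at 301, 373, 319.9 and 252 in cKO sham, at 625, 606, 608 and 574 in WT TAC, and at 560.4, 332, 398 and 389 in WT sham. TAC and sham did not overlap in either genotype, and WT sham replicate 1 stood well above the other WT sham libraries. The log2 fold change of TAC over sham was 0.61 in cKO (SE 0.13, adjusted p = 0.00301) and 0.52 in WT (SE 0.13, adjusted p = 0.0131). All cKO TAC values lay below all WT TAC values, by -0.35 (SE 0.13, adjusted p = 0.182). In sham the difference was -0.43 (SE 0.13, adjusted p = 0.123 by edgeR and 0.0490 by DESeq2).

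Actg1, the cytoplasmic gamma-actin, stood at 255, 243, 202 and 199 CPM in cKO TAC, at 156, 160.4, 150.1 and 112 in cKO sham, at 262, 263, 258 and 257 in WT TAC, and at 291, 173, 165 and 239 in WT sham. The 4 WT TAC values agreed to within 1.03-fold, whereas WT sham was spread over 1.77-fold and reached above WT TAC. Actg1 rose with TAC in cKO (log2 0.63, SE 0.16, adjusted p = 0.00630). In WT the change was 0.26 (SE 0.15, 95% interval -0.08 to 0.60, adjusted p = 0.266), which passed only without WT sham replicate 1 (0.44, adjusted p = 0.0443). The interaction of 0.37 (SE 0.22) did not pass (adjusted p = 0.946). All cKO sham libraries lay below all WT sham libraries, at 145 ± 22.0 against 217 ± 59.7 CPM (SD, n = 4 each; log2 -0.58, SE 0.16, adjusted p = 0.0769). That difference passed in DESeq2 (0.0174), without WT sham replicate 2 (0.0404), without WT sham replicate 3 (0.0298) and without both atrial-rich WT libraries (-0.70, adjusted p = 0.0357). Over all edgeR fits with a single library left out it ran from -0.70 to -0.41, with adjusted p from 0.0298 to 0.223.

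The ratio of cytoplasmic to striated-muscle actin was lower in cKO sham than in WT sham, though it did not pass the adjusted exact test. The per-kb ratio of Actb plus Actg1 to Acta1 plus Actc1 was 0.0190, 0.0227, 0.0149 and 0.0178 in cKO sham against 0.0462, 0.0271, 0.0255 and 0.0374 in WT sham, with no overlap. The log2 difference was -0.84 (SE 0.24; two-sided exact permutation p = 0.0286, adjusted exact p = 0.0623), and the limma fit relative to the striated actins called it (adjusted p = 0.00758, beside 11.4% of all genes called). After TAC it was 0.0315, 0.0215, 0.0225 and 0.0226 in cKO against 0.0255, 0.0300, 0.0295 and 0.0358 in WT, which overlapped (-0.31, exact permutation p = 0.114).

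Within the cytoplasmic pair the mix gave no call. Actb to Actg1 per kb averaged 2.12 ± 0.236 in cKO TAC, 2.14 ± 0.173 in cKO sham, 2.30 ± 0.0660 in WT TAC and 1.96 ± 0.325 in WT sham (SD, n = 4 each), and exact permutation p-values in the 4 comparisons were 0.143 or higher. The ratio of Acta2 to Actc1 gave no call either, with exact permutation p from 0.0571 to 0.743.

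Actn1, a non-muscle alpha-actinin of focal adhesions, rose with TAC in each genotype. It stood at 114, 102, 67.2 and 87.6 CPM in cKO TAC, at 47.0, 48.2, 36.8 and 41.4 in cKO sham, at 71.1, 69.3, 61.3 and 82.7 in WT TAC, and at 26.5, 38.9, 35.1 and 29.1 in WT sham. No TAC library overlapped a sham library. The rise was 2.14-fold in cKO (log2 1.10, SE 0.15, adjusted p = 0.000116) and 2.19-fold in WT (log2 1.13, SE 0.15, adjusted p = 0.000133), with an interaction of -0.04 (95% interval -0.50 to 0.43). Between genotypes, cKO over WT was 0.38 after TAC (SE 0.15, adjusted p = 0.189) and 0.42 after sham (SE 0.15, adjusted p = 0.190), with overlap in both. The difference after TAC passed without cKO TAC replicate 3 (0.51, adjusted p = 0.0337). Leaving out other single libraries lowered it to as little as 0.26 (adjusted p up to 0.555 by edgeR).

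Actn4, the other non-muscle alpha-actinin, had the lowest biological coefficient of variation of the 9. It stood at 246, 252, 216 and 215 CPM in cKO TAC, at 159.9, 161, 151 and 155 in cKO sham, at 225, 209, 201 and 205 in WT TAC, and at 136, 158, 147 and 123 in WT sham. TAC and sham did not overlap. The rise was 1.48-fold in cKO (log2 0.57, SE 0.09, adjusted p = 0.000208) and 1.49-fold in WT (log2 0.57, SE 0.09, adjusted p = 0.000338), and the interaction was -0.01 (95% interval -0.27 to 0.26). The genotype differences of 0.15 after TAC and 0.15 after sham did not pass (adjusted p = 0.410 and 0.435).

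Actn2, the sarcomeric alpha-actinin of the Z-disc, passed between the genotypes after TAC. It stood at 1853, 2065, 2079 and 2062 CPM in cKO TAC, at 2134, 1874, 2264 and 1899 in cKO sham, at 2827, 2732, 2624 and 2430.1 in WT TAC, and at 2279.7, 2441, 2515 and 2147 in WT sham. After TAC every cKO library lay below every WT library. Actn2 fell to 0.759-fold in cKO against WT after TAC (log2 -0.40, SE 0.09, adjusted p = 0.0401). This call was near the threshold: it was lost when any of cKO TAC replicates 1, 2 or 4 or WT TAC replicates 1, 2 or 3 was left out (adjusted p from 0.0547 to 0.138), without both atrial-rich WT libraries (0.0511), with the atrial marker level as a covariate (0.0716), by library totals (0.0847) and in the fit of the 8 TAC libraries alone (0.0747). The log2 change was -0.44 to -0.31 in these fits. The atrial covariate, unlike the atrial sum given above, included Nppa, which averaged 1473 CPM in cKO TAC and 397 in WT TAC. That covariate therefore does not measure atrial tissue alone.

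After sham the genotype difference of Actn2 was -0.20 (95% interval -0.41 to 0.01, edgeR unadjusted p = 0.0491, adjusted p = 0.331). TAC over sham was -0.02 in cKO (95% interval -0.23 to 0.19, or 0.17 by library totals) and 0.18 in WT (-0.03 to 0.38), neither past the threshold (adjusted p = 0.904 and 0.212); by library totals the WT value of 0.30 passed (adjusted p = 0.0268). Other cardiomyocyte transcripts moved in these groups: of the 7 cardiomyocyte markers 5 fell with TAC in cKO and 2 in WT, and their sum was 30790 to 45822 CPM in cKO TAC against 41684 to 50909 in WT TAC, and 49991 to 59281 in cKO sham against 52057 to 62325 in WT sham. None of the 7 passed between genotypes. Whether the cardiomyocyte share of the tissue bears on Actn2 was not tested.

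Mean ratios within the alpha-actinins were higher in TAC than in sham and higher in cKO than in WT, though none passed the adjusted exact test. Actn1 to Actn2 per kb was 0.0423, 0.0339, 0.0222 and 0.0291 in cKO TAC, 0.0151, 0.0176, 0.0111 and 0.0150 in cKO sham, 0.0172, 0.0174, 0.0160 and 0.0233 in WT TAC, and 0.00798, 0.0109, 0.00957 and 0.00929 in WT sham. Actn4 to Actn2 was 0.0823, 0.0757, 0.0643 and 0.0645 in cKO TAC, 0.0464, 0.0531, 0.0414 and 0.0506 in cKO sham, 0.0492, 0.0473, 0.0474 and 0.0523 in WT TAC, and 0.0369, 0.0401, 0.0362 and 0.0356 in WT sham. Actn4 to Actn2 separated both groups completely in each of the 4 comparisons, and Actn1 to Actn2 did so in all but cKO against WT after TAC.

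For Actn4 to Actn2 the log2 differences were 0.58 (SE 0.12) for TAC in cKO, 0.40 (SE 0.05) for TAC in WT, 0.54 (SE 0.09) for cKO over WT after TAC and 0.36 (SE 0.09) for cKO over WT after sham. Each had a two-sided exact permutation p of 0.0286, adjusted to 0.0623 over the 24 ratio tests. The limma fit relative to Actn2 called all 4 (adjusted p = 0.000724, 0.0138, 0.00201 and 0.0498), beside 20.7%, 21.6%, 46% and 6.27% of all genes called in that fit. For Actn1 to Actn2 the differences were 1.10, 0.96, 0.76 and 0.63 in the same order (SE 0.24, 0.15, 0.23 and 0.17), with limma adjusted p = 0.000205, 0.00115, 0.00388 and 0.0361. The exact permutation p was 0.0571 for cKO over WT after TAC and 0.0286 for the others (adjusted to 0.105 and 0.0623). Actn2, the denominator, was itself lower in cKO TAC than in WT TAC. The TAC response of neither ratio differed between genotypes in the limma fit (interaction 0.18 and 0.13, adjusted p = 0.695 and 0.851 for Actn4 and Actn1).

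Some fibroblast, endothelial and macrophage transcripts also moved with TAC beside Actb, Actg1, Actn1 and Actn4, which those cells express. Actg1 passed with TAC in cKO alone. Of the 5 endothelial markers, 2 rose in each genotype (Cdh5 and Pecam1) and 3 did not pass, with a median log2 change of 0.11 in each. Their sums were 854 to 943 CPM in cKO TAC, 716 to 800.1 in cKO sham, 801 to 1058 in WT TAC and 717 to 863 in WT sham. Of the 5 macrophage markers, 4 rose in cKO and 3 in WT, with sums of 242 to 358 CPM in cKO TAC, 134 to 244 in cKO sham, 189 to 259.7 in WT TAC and 108 to 179.6 in WT sham. Of the 6 pericyte markers 2 rose and 2 fell in cKO and 2 rose in WT, and none of the 5 erythrocyte markers passed. The erythrocyte sum was 1248 CPM in WT sham replicate 1, and the next highest was 533 CPM in WT sham replicate 4. WT sham replicate 1 also had the highest Actb and Actg1 of its group, and the part of blood in these values was not tested. Whether more fibroblasts, endothelial cells and macrophages or more transcript per cell underlies the rises of the 4 genes was not tested.

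Deviations of log2 CPM from the group means over the 16 libraries, read only as a description because these points share library scaling, correlated most between Actc1 and Actn2 (r = 0.872), the thin filament and its Z-disc anchor. The cytoplasmic pair Actb and Actg1 followed (r = 0.773), then the non-muscle pair Actn1 and Actn4 (r = 0.722). Actn2 and Actn1 gave r = -0.208, and Acta1 correlated with Actc1 at r = 0.439. The spread itself ranked Acta1 highest: its biological coefficient of variation was 64.9%, above that of 99.4% of tested genes, against 10.0% for Actn4 and 10.6% for Actn2. Acta1 spanned 85.0-fold over the 16 libraries, and Actn2 spanned 1.53-fold.

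**Figure D5:**
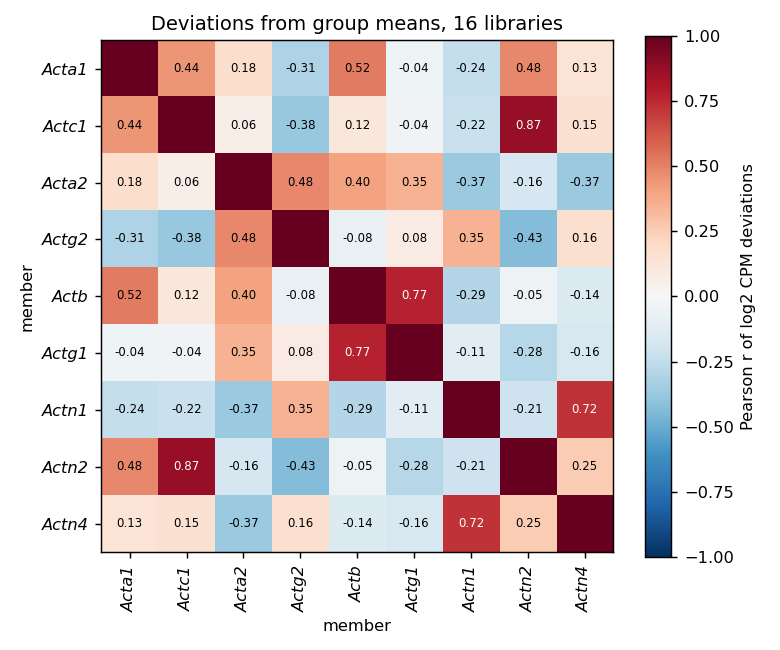
Pearson correlation of log2 CPM deviations from group means between the 9 genes over 16 libraries, blue negative and red positive, with r printed in each cell. The reddest pairs are Actc1 with Actn2 (0.872), Actb with Actg1 (0.773) and Actn1 with Actn4 (0.722).

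Among 13160 other named genes, the same measure put Ldb3 first for both Actc1 (r = 0.879) and Actn2 (r = 0.912); Ldb3 encodes a Z-disc protein that binds alpha-actinin. For Actg2 the nearest gene was Lmod1 (r = 0.914), a leiomodin of smooth muscle filaments. Acta1 was followed most closely by Metrnl (r = 0.868), Fam173b (r = 0.868) and Grk5 (r = 0.867), a G protein-coupled receptor kinase. The nearest genes were Clcf1 for Actg1 (r = 0.923), Entpd1 for Actn1 (r = 0.918), AI413582 for Actb (r = 0.907), Baiap2 for Actn4 (r = 0.889) and Emc8 for Acta2 (r = 0.885). These are the highest of 13160 values each and carry no test.

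Genes around the actins were counted by list, to be read beside the 14.2% of all genes that rose and 12.4% that fell with TAC in cKO, and the 9.7% that rose and 6.14% that fell in WT. Of 17 focal adhesion and cross-linking genes, 12 rose and 1 fell with TAC in cKO and 11 rose with none falling in WT, with list medians of 0.52 and 0.51. Vasp, which speeds filament growth at adhesions, rose by 0.52 in cKO and 0.51 in WT. Parva, a partner of integrin-linked kinase, rose by 0.48 in cKO, and the plastin Pls3 by 0.66 in WT. In cKO against WT after TAC the only one of the 17 that passed was talin 2, Tln2, at 99.8 ± 6.52 CPM in cKO and 79.6 ± 4.19 in WT (log2 0.33, adjusted p = 0.0323).

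Of 20 genes that cap, sever or sequester actin, 8 rose and 1 fell with TAC in cKO, and 11 rose in WT, with medians of 0.23 and 0.31. Thymosin Tmsb10, which binds actin monomers, rose by 0.97 in cKO and 0.88 in WT (adjusted p = 0.000146 and 0.000500). Cap1, which recycles monomers, rose by 0.41 and 0.59. Wdr1, a cofactor of cofilin, rose by 0.50 in cKO, and the pointed-end cap Tmod3 by 0.62 in WT. Of 18 nucleation genes, 6 rose and 1 fell in cKO, and 7 rose and 1 fell in WT, with medians of 0.24 and 0.26. The formin Diaph3 rose most among those named, to 4.07 ± 0.992 CPM in cKO TAC against 0.591 ± 0.137 in cKO sham, and to 2.77 ± 0.761 in WT TAC against 0.436 ± 0.191 in WT sham. The Arp2/3 subunit Arpc5 rose by 0.54 and 0.55, Actr3 by 0.32 in cKO, and Arpc1b by 0.76 in WT.

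Of 20 Z-disc partners of alpha-actinin, 3 rose and 3 fell with TAC in cKO, and 5 rose and 2 fell in WT, with medians of 0.26 and 0.21; the shares in cKO are near those of all genes. The actin-binding Xin-repeat gene Xirp2 rose to 2195 ± 580 CPM in cKO TAC against 715 ± 160 in cKO sham, and to 1395 ± 593 in WT TAC against 430 ± 92.1 in WT sham (adjusted p = 0.000542 and 0.000686). Synpo2l, a Z-disc actin-binding protein, rose by 1.61 and 1.62, and Pdlim1 by 0.67 in WT. Cmya5, myospryn, fell by 0.70 in cKO (319 ± 37.9 CPM in TAC, 516 ± 39.4 in sham, adjusted p = 0.000300).

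Of 13 genes for serum response factor, its coactivators and partner factors, 3 rose with TAC in each genotype and 1 fell in WT, while the list median stayed at 0.00 in cKO and -0.09 in WT. The 3 were Fhl1, a LIM protein of the sarcomere, Mrtfa, the actin-sensing coactivator, and Abra, which activates Mrtf. Mrtfa rose by 0.38 in cKO (adjusted p = 0.0237) and 0.54 in WT (0.00622), and Abra by 0.78 (0.0483) and 1.18 (0.0107). In cKO against WT after sham, Mrtfb alone of the 13 passed, at 39.4 ± 8.45 CPM in cKO and 25.5 ± 4.08 in WT (log2 0.63, SE 0.15, adjusted p = 0.0404). Of 9 smooth muscle contractile genes, 1 rose and 1 fell in cKO, and 2 rose and 1 fell in WT, with medians of -0.18 and 0.46. The caldesmon gene Cald1 rose in both (0.69 and 0.58) and Smtn fell in both (-0.52 and -0.44). These calls, with that of Cnn1 in WT, are the same as those of the smooth muscle markers given with Actg2, because the lists overlap. None of 13 measured genes for actin folding and amino-terminal processing, such as the chaperonin subunits Cct2 to Cct8, passed in any comparison. The medians of those 13 with TAC were -0.10 in cKO and 0.01 in WT.

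Similar sequences limit how cleanly reads are assigned. Acta1 and Actc1 coding sequences were identical at 86.3% of aligned bases and Actb and Actg1 at 88.6% in the GENCODE transcripts, while Actn1 and Actn2 matched at 76.4%. For 1 transcript per gene, that with the longest coding part, no stretch of 100 bases recurs in transcripts of another of the 9. At 50 bases 28 of 1397 stretches of Acta1, 48 of 1871 of Actb and 37 of 1903 of Actg1 recur in another member. None of 1424 of Actc1 or of 1284 of Actg2 do. The rest of the genome, pseudogenes included, was not searched. How reads matching several places were counted is not given in the sources used here.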

How the data were processed

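Bulk RNA was sequenced from 16 left ventricles, 4 per group, per the labels. The authors deposited raw read counts per Ensembl gene ID for each library, not normalized. Tools listed in the submitters' processing notes are featureCounts 2.0.6, HISAT2 2.0.5, fastp 0.22.0, SAMtools 1.21 and FastQC, with the build GRCm39; strandedness, annotation release and the treatment of multi-mapping reads are not given in the sources used here. Gene symbols, exon lengths for the per-kb scale and transcripts came from GENCODE vM21 on GRCm38, which matched 51880 of 57186 IDs carrying 99.5% of counts.

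Counts were filtered with filterByExpr (15206 genes left), scaled by TMM factors and fitted in edgeR 4.0.16 (R 4.3.3) with a robust quasi-likelihood model of 1 mean per group over all 16 libraries (12 residual degrees of freedom). P-values were adjusted by Benjamini-Hochberg over all tested genes in each comparison, with a threshold of 0.05. Replicates are biological replicates per the series' design text. Pairs of libraries of a group differed by a chi-square of 7.48 to 43.8 per gene, well above sampling noise. The common biological coefficient of variation was 16.5%. Ratios were tested on the log2 scale by exact permutation (two-sided, 70 relabelings), and by limma 3.58.1 on log2 CPM (prior count 2) of all genes minus the denominator. Fold changes of edgeR are given with SE. DESeq2 1.42.0, limma voom, other scalings and filters, a replicate block and left-out libraries were alternatives. The scripts were tested on simulated data.

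The 9 genes, the 7 gene lists and the 9 marker lists were chosen with earlier results of these data known. All 9 genes are reported; of each list up to 3 genes per comparison with the smallest adjusted p are named, and for each of the 9 the genes with the highest correlation. One gene of the lists that this rule names is not reported here.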

Additional observations from a re-analysis of the deposited data

Results flagged for a closer look

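Of 60 group-wise sets of 4 values (9 genes and 6 ratios in 4 groups), 2 held a library set apart from the other 3 by a Dixon gap test at 95%; chance alone marks about 1 set in 20. Both were cKO TAC replicate 1. Its Actn2 level was 1853 CPM, against 2062 to 2079 CPM in the other cKO TAC libraries. Its per-kb ratio of Actb plus Actg1 to Acta1 plus Actc1 was 0.0315, against 0.0215 to 0.0226 in the other cKO TAC libraries. The same library had the lowest cardiomyocyte marker sum of all 16 (30790 CPM) and the highest fibroblast marker sum (4011 CPM); their part in these values was not tested.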

How the results depend on the processing

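In TAC against sham in cKO the 4 calls (Actb, Actg1, Actn1, Actn4) were kept under every alternative run, with Acta1 and Acta2 added in the fit of those groups alone, and the count stayed at 4 when any library was left out. In WT the count ran from 4 to 7, and from 4 to 6 when a library was left out. In cKO against WT after TAC the count of 1 became 0 by library totals and with the atrial marker level (Nppa included) as covariate. It was also 0 in the fit of the compared groups alone and without the 2 atrial-rich WT libraries. The count was 2 (Actg2, Actn2) by DESeq2's Wald test, and 0 to 2 when a library was left out. After sham the count of 0 became 3 by DESeq2's Wald test, 1 (Actb) without a filter on low counts, 1 (Actg1) without the 2 atrial-rich WT libraries, and 0 to 1 when a library was left out. The interaction stayed at 0 in every alternative. The Acta1 to Actc1 difference for TAC in WT, 3.74, passed in the limma fit (adjusted p = 0.00447) and with the replicate block (0.00748). Same-numbered libraries were treated as unpaired. Correlations of their deviations ran from -0.160 to 0.229 (4 of 24 exceeded 0.1), which cannot exclude pairing. The replicate block changed no count of member calls (4, 5, 1, 0 and 0). No called value changed sign; 33 of 918 alternative fold changes, none of them called, did. The causes were not tested. Groups of 4 limit exact tests to p = 0.0286, and Actg2, at 0.521 to 7.41 CPM, is limited by depth.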
